A study of Mus musculus with 24 samples.

Results

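Interferon-stimulated antiviral genes were followed in murine myeloid progenitors that carried 1 of 2 ERG proteins or an empty vector and were treated with the HDAC3 inhibitor BRD3308 or its solvent. The set held 48 genes of the 53801 in the counts table, chosen by name with earlier results of these data known. Among them, 37 had enough reads to be tested, as did 12963 genes in all, and 11 had not.

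Interferons are secreted proteins that bind receptors on the cell surface, where kinases of the JAK family start a signal to the nucleus. There a complex that contains IRF9 binds the interferon-stimulated response element (ISRE), and type II interferon acts through the gamma-activated site (GAS). The genes so induced encode sensors of foreign RNA and DNA, enzymes that degrade viral RNA or block its translation, proteins that hold virions at the membrane, and GTPases that attack vacuoles of intracellular pathogens.

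ER-Hoxb8 cells are C57BL/6 myeloid progenitors kept immature by an estrogen-dependent Hoxb8, which all groups carried, and they mature once beta-estradiol is removed. RNA was sequenced from cells with human P199L-ERG, a point mutant, with human WT-ERG, or with the empty lentiviral vector (BB), each washed free of beta-estradiol and given 5 µM BRD3308 or DMSO for 36 h. Each of the 6 groups had 4 libraries, which the methods describe as independent experiments. Elsewhere the study gives another dose and time for this experiment, and separate transductions for the replicates are not stated, so a difference between constructs can include a difference between the derived lines.

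The 24 libraries held 12510036 to 16280939 counts. *Erg* was at 96.3 to 111 CPM (counts scaled to a common library total) in DMSO-treated cells with ERG and at 88.3 to 99.9 CPM in DMSO-treated BB cells. Reads of the human transgene may or may not be counted under *Erg*, so this does not check the labels. The 8 progenitor markers summed to 22431 to 27075 CPM with BRD3308 and 25072 to 29983 CPM with DMSO, of which *Mpo* alone made up 12314 to 18929 CPM over the 24 libraries. Within this list *Cd34* and *Elane* rose with BRD3308 in each construct (1.29 to 1.47 and 1.30 to 1.36 on the log2 scale), while *Mpo*, *Prtn3* and *Ctsg* fell. Replicate 4 of the DMSO-treated P199L-ERG cells and of the DMSO-treated WT-ERG cells stood furthest from their own replicates, with chi-square values per gene of 14.1 to 23.8 and 4.01 to 8.44, against 2.36 to 5.04 and 1.82 to 3.06 among the other 3 replicates of each group. Calls that were lost without either of them are given with the value without it.

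The ISRE sequences below show a DNA element known from interferon-responsive promoters, in the 7 members described library by library that carry it. Promoters of 300 bases, from 250 before to 50 after the start, came from RefSeq (GRCm38.p6), which held 38 of the 48 members. The ISRE letters, GAAA then any 2 bases then GAAA, were found on either strand in 19 of these 38 genes (50%), and in 1079 of all 27025 genes with a promoter (3.99%). The stretches run 5′ to 3′ on the strand of the gene, with the matched bases in capitals and 15 bases on either side. The *Ifit1* stretch was added after its values were seen, as that of a member with almost no reads. The *Ifit1* promoter holds another match, in the stretch chr19:34640789-34640828, which is not shown. Its first bases stand in lower case at the end of the *Ifit1* stretch below.
*Oas3*, chr5:120777710-120777749, minus strand: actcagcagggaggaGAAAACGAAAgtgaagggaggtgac
*Rsad2*, chr12:26456548-26456587, minus strand: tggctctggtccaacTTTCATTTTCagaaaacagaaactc
*Bst2*, chr8:71537572-71537617, minus strand: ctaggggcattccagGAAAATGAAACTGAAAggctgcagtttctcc
*Isg15*, chr4:156200860-156200911, minus strand: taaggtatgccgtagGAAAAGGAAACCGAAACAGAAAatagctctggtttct
*Gbp3*, chr3:142559984-142560029, plus strand: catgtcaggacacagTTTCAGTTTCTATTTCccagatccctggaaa
*Gbp7*, chr3:142530268-142530307, plus strand: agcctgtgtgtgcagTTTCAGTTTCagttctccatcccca
*Cxcl10*, chr5:92349078-92349117, minus strand: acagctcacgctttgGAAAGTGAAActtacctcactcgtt
*Ifit1*, chr19:34640770-34640809, plus strand: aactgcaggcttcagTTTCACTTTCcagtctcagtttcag

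The GAS letters TTCNNNGAA were in 9 of the 38 members (23.7%) and in 9.55% of all genes with a promoter. In 1 member a GAS match shared bases with an ISRE match. The ETS letters CCGGAAGT, the core recognised by ERG and its relatives, were in 2 of the 38 members (5.26%), *Ifih1* and *Ifit2*, and in 4.31% of all genes with a promoter. Among genes that were tested, 6.45% of the members and 9.82% of all genes held them. These are matches of letters, not measured sites. The ISRE letters were also present in the promoters of 5 of the 7 members with a promoter that were too low to test.

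Levels of the family spanned several orders of magnitude without added interferon. Per kb of exon, *Slfn2*, a Schlafen protein needed for quiescence of immune cells, averaged 37.8 CPM per kb over the DMSO groups. *Sp100*, a nuclear body protein, averaged 33.6, and *Bst2*, which encodes tetherin and holds virions at the membrane, averaged 27.1 CPM per kb. Among the tested members the DMSO averages were lowest for *Oas3* with 0.0307 and *Oasl2* with 0.0333 CPM per kb, both of the oligoadenylate synthetase (OAS) family.

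**Figure D1:**
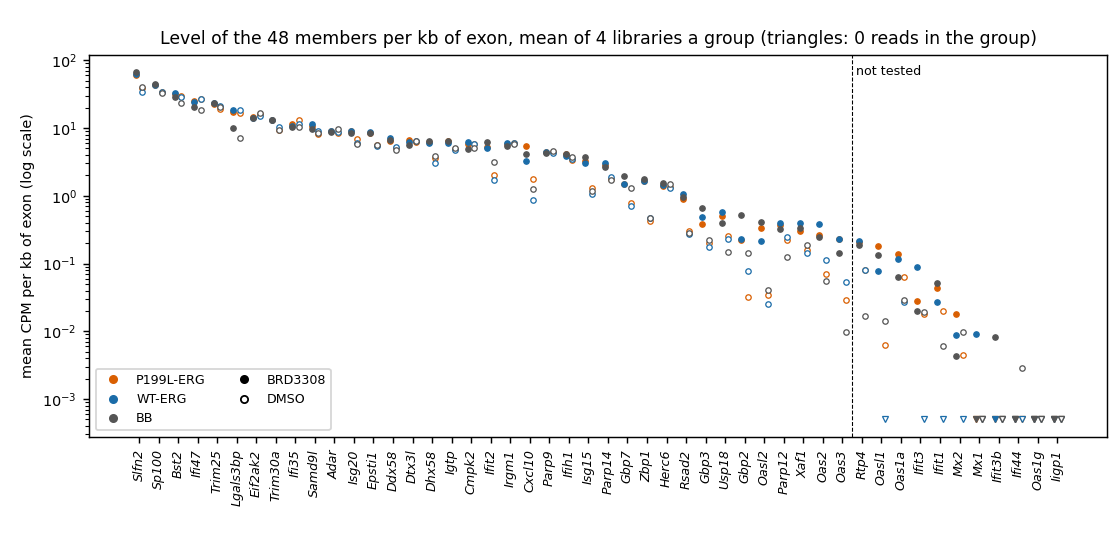
Mean CPM per kb of exon (log scale) of each of the 48 members in each of the 6 groups of 4 libraries, ordered by the highest group, with BRD3308 filled and DMSO open. Levels run from 67.3 CPM per kb for *Slfn2* in its highest group to 0 for *Oas1g* and *Iigp1*, and the 11 members right of the dashed line were not tested.

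The silent members included several of the best known antiviral genes. *Mx1* and *Mx2*, GTPases that trap viral nucleocapsids, had 2 and 7 reads over the 12 BRD3308 libraries and 0 and 3 reads over the 12 DMSO libraries. C57BL/6 mice carry defective Mx genes. *Oas1g* and the GTPase *Iigp1* had 0 reads in all libraries, which allows up to 0.0167 CPM over the BRD3308 libraries and 0.0171 CPM over the DMSO libraries, counting error only. *Ifi44* had a single read in all, as did *Ifit3b*. *Oas1a* and *Oas1g*, and *Ifit3* and *Ifit3b*, are near-identical pairs whose reads the counting could split or drop.

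The *Ifit* cluster on chromosome 19 (GRCm38) held active and silent genes side by side. *Ifit2*, at 34550694 to 34576419, had 3866 reads over the BRD3308 libraries and 1577 over the DMSO libraries. *Ifit1*, at 34640871 to 34650009, had 19 and 4, and *Ifit3*, at 34583531 to 34588731, had 14 and 4 reads. Of the other members that were not tested, *Oasl1* had 61 reads with BRD3308 and 3 with DMSO, *Rtp4* had 77 and 22, and *Oas1a* had 36 and 13. No fold change is given for these.

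Interferon genes themselves were almost unread. Of 21 interferon ligand genes, 18 had 0 reads in every library. Reads that fit more than 1 gene could have been dropped by the counting, and *Ifnk*, *Ifng*, *Ifnl2* and *Ifnl3* overlap other genes. The other 3 summed to 24 reads of 355099174, with at most 3 reads of a gene in a library. Secreted protein was not measured.

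BRD3308 raised most of the family in each construct, which addresses what HDAC3 inhibition does to these genes. Of the 28 members that were above the limit of the low-count filter in every DMSO group, 17 rose and 2 fell in P199L-ERG cells, 17 rose and 1 fell in WT-ERG cells, and 19 rose and 1 fell in BB cells. Among all genes tested, 24.4% rose and 24.1% fell in P199L-ERG cells, 24.7% and 23.2% in WT-ERG cells, and 24% and 22% in BB cells. The median log2 fold change of these 28 members was 0.36, 0.34 and 0.37 in P199L-ERG, WT-ERG and BB cells, where the medians of all genes lay between -0.01 and 0.01.

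The other 9 tested members had a library under that limit in at least 1 DMSO group (*Oas2*, *Oas3*, *Oasl2*, *Isg15*, *Usp18*, *Parp12*, *Gbp2*, *Gbp3* and *Xaf1*). For 8 of these, all but *Parp12*, no DMSO group had all 4 libraries over the limit, while at least 1 BRD3308 group did. A filter passed in this way can favour a rise, so their rise is given as a description. With them, 26 of 37 members rose in P199L-ERG cells, 26 in WT-ERG cells and 28 in BB cells. Across the constructs, 25 members rose in all 3, *Eif2ak2* fell in all 3 (in WT-ERG cells not by DESeq2, as given beside its values), and 7 passed in none. The 25 include the 9 members just listed. The shares of all genes that rose, fell or passed in none across the 3 constructs were not counted, so these counts have no background. A further 3 rose in 1 or 2 constructs (*Trim25*, *Bst2* and *Lgals3bp*), and *Ifi35* fell in P199L-ERG cells. Among the 28 members above the limit in every DMSO group, the 4 BRD3308 libraries lay wholly above the 4 DMSO libraries for 17 in P199L-ERG cells, 16 in WT-ERG cells and 19 in BB cells, as they did for 20.8%, 22.5% and 23% of all genes tested.

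**Figure D2:**
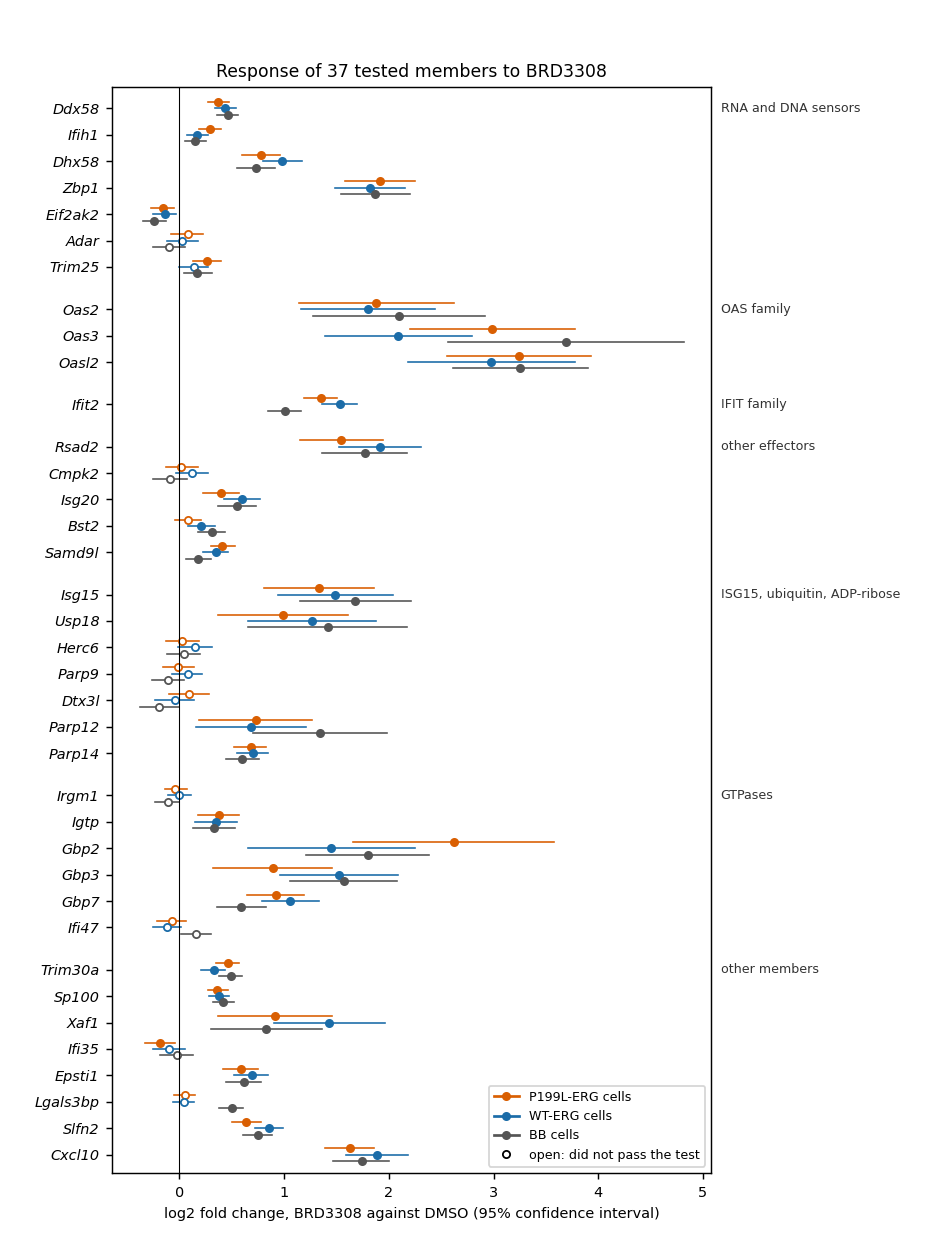
Log2 fold change of BRD3308 against DMSO for the 37 tested members, with 95% confidence intervals, in P199L-ERG, WT-ERG and BB cells, grouped by role. Filled points passed the test, and they lie right of 0 for all but *Eif2ak2* and *Ifi35*.

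Among the sensors, *Zbp1*, which binds Z-form nucleic acids and starts necroptosis, rose furthest. *Zbp1* had 5.24, 5.7, 5.49 and 6.62 CPM in BRD3308-treated P199L-ERG cells, against 1.61, 1.63, 1.39 and 1.43 CPM in DMSO-treated ones. With WT-ERG, *Zbp1* was at 4.59, 6.1, 6.21 and 6.65 CPM with BRD3308 and 1.33, 1.4, 1.74 and 2.27 CPM with DMSO. BB cells had *Zbp1* at 4.82, 6.09, 6.74 and 7.08 CPM with BRD3308 and 1.43, 1.59, 2.18 and 1.5 CPM with DMSO. No treated library reached down to a DMSO library. The log2 fold changes of *Zbp1* were 1.92 (SE 0.17) in P199L-ERG cells, 1.82 (SE 0.17) in WT-ERG cells and 1.87 (SE 0.17) in BB cells, with edgeR adjusted p from 3.23e-10 to 7.07e-10.

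*Dhx58*, which encodes LGP2, a regulator of the RNA helicase sensors, behaved alike at higher levels. *Dhx58* had 19.9, 19.1, 21.8 and 21.3 CPM in BRD3308-treated P199L-ERG cells, against 10.6, 11.9, 12.7 and 12.7 CPM in DMSO-treated ones. With WT-ERG, *Dhx58* was at 16.5, 19.9, 21.6 and 21.6 CPM with BRD3308 and 9.75, 9.1, 9.73 and 11.9 CPM with DMSO. BB cells had *Dhx58* at 20.1, 22, 19.7 and 22.7 CPM with BRD3308 and 11.9, 11.4, 13.2 and 14.4 CPM with DMSO. The groups did not overlap in any construct. Its log2 fold changes were 0.78 (SE 0.09) in P199L-ERG cells, 0.98 (SE 0.09) in WT-ERG cells and 0.73 (SE 0.09) in BB cells, with edgeR adjusted p from 1.69e-09 to 1.78e-07. An antisense gene overlaps *Dhx58*, and the strand setting of the counts is not given in the sources used here.

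The helicase sensors that LGP2 regulates rose less. *Ddx58* (RIG-I, a sensor of uncapped RNA) rose by 0.37 in P199L-ERG cells, 0.44 in WT-ERG cells and 0.46 in BB cells on the log2 scale (SE 0.05 each). *Ifih1* (MDA5, a sensor of long double-stranded RNA) rose by 0.29, 0.17 and 0.15 in the same order (SE 0.05 each). The BB value of *Ifih1* no longer passed without DMSO replicate 4 (0.14, edgeR adjusted p = 0.0507) or BRD3308 replicate 1 (0.11, edgeR adjusted p = 0.119). *Eif2ak2*, which encodes the translation-blocking kinase PKR, moved the other way. Its log2 fold changes were -0.16 (SE 0.06) in P199L-ERG cells, -0.14 (SE 0.06) in WT-ERG cells and -0.24 (SE 0.06) in BB cells, with edgeR adjusted p from 0.000773 to 0.0459. In WT-ERG cells that call was lost without any of 6 of the 8 libraries (all but DMSO replicate 4 and BRD3308 replicate 1), with edgeR adjusted p up to 0.134. It was also lost there with DESeq2 (-0.13, DESeq2 adjusted p = 0.0622), RLE factors, library size alone, no filter or a filter of more than 30 reads (edgeR adjusted p from 0.0523 to 0.137). In P199L-ERG cells it was lost without DMSO replicate 4 (edgeR adjusted p = 0.0683) or BRD3308 replicate 2 (edgeR adjusted p = 0.0749).

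*Trim25*, a ubiquitin ligase that activates RIG-I, rose in P199L-ERG cells (0.26, SE 0.07) and in BB cells (0.17, SE 0.07). The BB call was lost in 14 of the 24 fits that left out a library (edgeR adjusted p from 0.055 to 0.145 there). *Adar*, the editor of double-stranded RNA, passed in no construct, with values of 0.08, 0.03 and -0.10 in P199L-ERG, WT-ERG and BB cells.

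The 3 OAS genes with enough reads to test had large fold changes on few reads. These enzymes make oligoadenylates that activate the ribonuclease RNase L. *Oasl2* had 2.49, 1.84, 2.55 and 1.62 CPM in BRD3308-treated P199L-ERG cells, against 0.129, 0.314, 0.278 and 0.143 CPM in DMSO-treated ones. With WT-ERG, *Oasl2* was at 1.49, 1.48, 1.2 and 1.38 CPM with BRD3308 and 0.0702, 0.243, 0.248 and 0.081 CPM with DMSO. BB cells had *Oasl2* at 2.48, 1.98, 2.74 and 3.18 CPM with BRD3308 and 0.501, 0.19, 0.352 and 0 CPM with DMSO. In reads these were 130 against 13, 83 against 10 and 151 against 15, and no groups overlapped. The log2 fold changes of *Oasl2* were 3.24, 2.98 and 3.25 in P199L-ERG, WT-ERG and BB cells (SE 0.35, 0.41 and 0.33), a description since *Oasl2* passed the filter only through its BRD3308 groups.

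*Oas3*, whose ISRE stretch is shown above, came close to silence in DMSO-treated BB cells. *Oas3* had 1.96, 1.52, 1.76 and 1.35 CPM in BRD3308-treated P199L-ERG cells, against 0.193, 0, 0.278 and 0.357 CPM in DMSO-treated ones. With WT-ERG, *Oas3* was at 2.13, 1.42, 1.27 and 1.61 CPM with BRD3308 and 0.561, 0.364, 0.248 and 0.324 CPM with DMSO. BB cells had *Oas3* at 0.698, 0.807, 1.07 and 1.52 CPM with BRD3308 and 0.215, 0.0635, 0 and 0 CPM with DMSO, which is 59 reads against 4. The log2 fold changes were 2.99, 2.09 and 3.69 in P199L-ERG, WT-ERG and BB cells (SE 0.40, 0.36 and 0.57), and the BB value rests on those 4 reads. For *Oas2* they were 1.88, 1.80 and 2.10 (SE 0.38, 0.32 and 0.42). *Oas2* and *Oas3* also passed the filter only through BRD3308 groups, so their values are a description.

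*Ifit2*, which binds viral RNA and limits its translation, had more reads and small errors. *Ifit2* had 19.6, 20.7, 20.1 and 21.5 CPM in BRD3308-treated P199L-ERG cells, against 7.98, 7.28, 8 and 8.84 CPM in DMSO-treated ones. With WT-ERG, *Ifit2* was at 18.4, 18.6, 20.8 and 21.8 CPM with BRD3308 and 6.81, 6.13, 7.75 and 6.72 CPM with DMSO. BB cells had *Ifit2* at 25.8, 21.6, 24.4 and 26.4 CPM with BRD3308 and 11.4, 12.6, 11.9 and 13.1 CPM with DMSO. No BRD3308 library overlapped a DMSO library, and DMSO-treated BB cells lay above both ERG groups. Log2 fold changes of *Ifit2* were 1.35 (SE 0.08) in P199L-ERG cells, 1.53 (SE 0.09) in WT-ERG cells and 1.01 (SE 0.08) in BB cells, with edgeR adjusted p from 2.56e-14 to 1.98e-11.

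Of the other effectors, *Rsad2* rose furthest. It encodes viperin, which makes a chain-terminating nucleotide. *Rsad2* had 4.39, 3.55, 2.94 and 4.79 CPM in BRD3308-treated P199L-ERG cells, against 1.29, 1.69, 0.905 and 1.43 CPM in DMSO-treated ones. With WT-ERG, *Rsad2* was at 3.81, 4.62, 3.81 and 6.12 CPM with BRD3308 and 1.4, 1.27, 1.05 and 1.05 CPM with DMSO. BB cells had *Rsad2* at 4.51, 4.99, 3.74 and 3.68 CPM with BRD3308 and 1.36, 1.27, 1.27 and 1.02 CPM with DMSO. No groups overlapped, and the log2 fold changes were 1.54 (SE 0.20) in P199L-ERG cells, 1.92 (SE 0.20) in WT-ERG cells and 1.77 (SE 0.21) in BB cells, with edgeR adjusted p from 8.47e-09 to 3.7e-07. Its neighbour on chromosome 12, the nucleotide kinase gene *Cmpk2*, passed in no construct, with 0.02, 0.12 and -0.09 in P199L-ERG, WT-ERG and BB cells.

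*Isg20*, an exonuclease that degrades viral RNA, and *Bst2* rose by less. *Isg20* had 17, 17.4, 17.2 and 16.3 CPM in BRD3308-treated P199L-ERG cells, against 10.2, 14.1, 13.1 and 14.1 CPM in DMSO-treated ones. With WT-ERG, *Isg20* was at 16.6, 17.8, 18.4 and 14.4 CPM with BRD3308 and 10.8, 11.2, 11.3 and 11.3 CPM with DMSO. BB cells had *Isg20* at 14.3, 16.9, 16.4 and 15.8 CPM with BRD3308 and 10.4, 10.2, 11.8 and 10.8 CPM with DMSO. These groups did not overlap, and the log2 fold changes were 0.40, 0.60 and 0.55 (SE 0.09 each). *Bst2* had 27, 28.3, 30.4 and 28.8 CPM in BRD3308-treated P199L-ERG cells, against 26.7, 26.6, 26.7 and 28 CPM in DMSO-treated ones, which overlapped. With WT-ERG, *Bst2* was at 30.2, 26.4, 30.6 and 31.1 CPM with BRD3308 and 26.8, 25.3, 25.7 and 24.3 CPM with DMSO. BB cells had *Bst2* at 24.4, 28, 23.7 and 27.5 CPM with BRD3308 and 20.8, 20.8, 22.8 and 19 CPM with DMSO. The WT-ERG groups overlapped as well and the BB groups did not. *Bst2* passed in WT-ERG cells (0.21, SE 0.06, edgeR adjusted p = 0.00789) and BB cells (0.31, SE 0.07, edgeR adjusted p = 0.000421), not in P199L-ERG cells (0.08, SE 0.06, edgeR adjusted p = 0.289). *Samd9l*, which blocks poxvirus translation, rose by 0.41, 0.35 and 0.18 (SE 0.06 each). Its BB call was lost without DMSO replicate 4, BRD3308 replicate 1 or BRD3308 replicate 4 (0.15 to 0.17, edgeR adjusted p from 0.0525 to 0.0774).

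**Figure D3:**
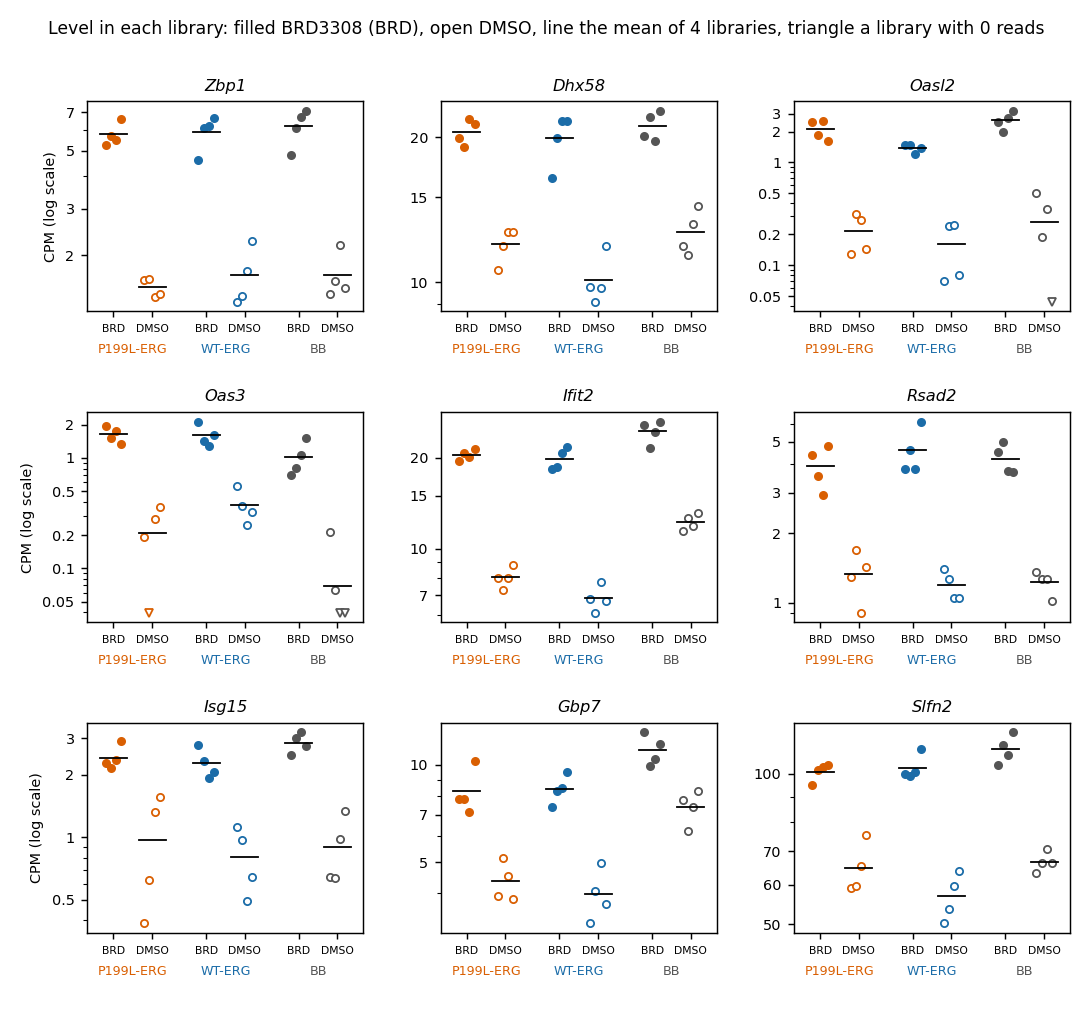
CPM (log scale) in each of the 24 libraries for 9 members, with BRD3308 filled and DMSO open in P199L-ERG, WT-ERG and BB cells. In each of the 9 panels every BRD3308 library lies above every DMSO library of the same construct, for example *Ifit2* at 18.4 to 21.8 CPM against 6.13 to 7.75 CPM in WT-ERG cells. The panels are a choice among the members described library by library, and others of them, such as *Gbp3*, overlapped in P199L-ERG cells. Of all genes tested, 20.8%, 22.5% and 23% lay apart in this direction in P199L-ERG, WT-ERG and BB cells. *Oasl2*, *Oas3* and *Isg15* are given as a description.

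The ISG15 system and the ADP-ribosyltransferases were divided between genes that rose in every construct and genes that passed in none. Of those that rose, only *Parp14* was above the limit of the low-count filter in every DMSO group. The rise of *Isg15*, *Usp18* and *Parp12* is a description, so the division can partly follow the filter. ISG15 is a ubiquitin-like protein, and USP18 removes it and restrains the interferon receptor. *Isg15* had 2.29, 2.15, 2.35 and 2.9 CPM in BRD3308-treated P199L-ERG cells, against 0.386, 0.627, 1.32 and 1.57 CPM in DMSO-treated ones. With WT-ERG, *Isg15* was at 2.78, 2.34, 1.94 and 2.06 CPM with BRD3308 and 1.12, 0.971, 0.496 and 0.648 CPM with DMSO. BB cells had *Isg15* at 2.48, 3.01, 3.2 and 2.75 CPM with BRD3308 and 0.644, 0.635, 0.985 and 1.34 CPM with DMSO. The groups did not overlap, and the highest group mean was 3.78 CPM per kb. Log2 fold changes of *Isg15* were 1.33, 1.49 and 1.68 (SE 0.27, 0.28 and 0.27), and those of *Usp18* were 0.99, 1.27 and 1.42 (SE 0.32, 0.31 and 0.38).

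*Parp14*, an ADP-ribosyltransferase, had 27.7, 26.8, 24.6 and 26.5 CPM in BRD3308-treated P199L-ERG cells, against 16.9, 16.9, 15.8 and 16.5 CPM in DMSO-treated ones. With WT-ERG, *Parp14* was at 31.5, 26.9, 27.7 and 29 CPM with BRD3308 and 18.2, 19.7, 17 and 15.9 CPM with DMSO. BB cells had *Parp14* at 27.3, 23.3, 24.1 and 23.3 CPM with BRD3308 and 17.7, 17, 16.1 and 13.4 CPM with DMSO. Without overlap in any construct, *Parp14* had log2 fold changes of 0.68 (SE 0.08) in P199L-ERG cells, 0.70 (SE 0.08) in WT-ERG cells and 0.60 (SE 0.08) in BB cells, with edgeR adjusted p from 1.59e-08 to 3.61e-07. *Parp12* of the same enzyme family had 1.64, 1.71, 0.915 and 1.62 CPM in BRD3308-treated P199L-ERG cells, against 1.29, 0.69, 0.835 and 0.713 CPM in DMSO-treated ones. With WT-ERG, *Parp12* was at 1.68, 1.42, 1.8 and 1.53 CPM with BRD3308 and 0.982, 0.91, 1.12 and 0.972 CPM with DMSO. BB cells had *Parp12* at 1.02, 1.17, 1.53 and 1.52 CPM with BRD3308 and 0.787, 0.381, 0.774 and 0.0789 CPM with DMSO. The P199L-ERG groups overlapped through replicate 3 of the BRD3308 libraries.

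The log2 fold changes of *Parp12* were 0.73 (SE 0.28) in P199L-ERG cells, 0.68 (SE 0.27) in WT-ERG cells and 1.34 (SE 0.33) in BB cells, with edgeR adjusted p from 0.00132 to 0.0348. The call in WT-ERG cells was lost without any of 6 of the 8 libraries (all but DMSO replicate 3 and BRD3308 replicate 2, 0.62 to 0.69, edgeR adjusted p up to 0.0906). In P199L-ERG cells it was lost likewise for all but DMSO replicate 1 and BRD3308 replicate 3 (0.62 to 0.70, edgeR adjusted p up to 0.0923). *Herc6*, the ISG15 ligase of the mouse, and the partners *Parp9* and *Dtx3l* passed in no construct. The values of *Parp9* were -0.01, 0.08 and -0.11, and those of *Dtx3l* were 0.09, -0.04 and -0.19. *Parp9* and *Dtx3l* overlap on opposite strands of chromosome 16, so their reads may be mixed.

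Among the GTPases, the guanylate-binding protein gene *Gbp7* rose, while 2 of the 3 tested immunity-related GTPases passed in no construct. *Gbp2* and *Gbp3* rose too, but they passed the filter only through BRD3308 groups, so their values are a description. *Gbp7* had 7.86, 7.86, 7.12 and 10.3 CPM in BRD3308-treated P199L-ERG cells, against 3.93, 5.15, 4.52 and 3.85 CPM in DMSO-treated ones. With WT-ERG, *Gbp7* was at 7.43, 8.32, 8.48 and 9.48 CPM with BRD3308 and 3.23, 4.06, 4.96 and 3.72 CPM with DMSO. BB cells had *Gbp7* at 12.6, 9.91, 10.4 and 11.6 CPM with BRD3308 and 7.8, 6.22, 7.39 and 8.28 CPM with DMSO. No groups overlapped, and the DMSO level was highest in BB cells. Log2 fold changes of *Gbp7* were 0.92 (SE 0.14) in P199L-ERG cells, 1.06 (SE 0.14) in WT-ERG cells and 0.59 (SE 0.12) in BB cells, with edgeR adjusted p from 4.01e-07 to 0.000206.

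*Gbp3*, a neighbour of *Gbp7* on chromosome 3, had 1.31, 0.76, 1.57 and 1.35 CPM in BRD3308-treated P199L-ERG cells, against 0.772, 0.816, 0.766 and 0.285 CPM in DMSO-treated ones. With WT-ERG, *Gbp3* was at 1.81, 1.97, 1.27 and 1.38 CPM with BRD3308 and 0.772, 0.364, 0.496 and 0.648 CPM with DMSO. BB cells had *Gbp3* at 1.9, 1.83, 2.13 and 2.82 CPM with BRD3308 and 1, 0.698, 0.633 and 0.552 CPM with DMSO. Only the P199L-ERG groups overlapped. Log2 fold changes of *Gbp3* were 0.89, 1.52 and 1.57 (SE 0.29, 0.29 and 0.26). The P199L-ERG call was lost without DMSO replicate 4 (0.65, edgeR adjusted p = 0.0603) or BRD3308 replicate 3 (0.76, edgeR adjusted p = 0.0536). *Gbp2* followed with 2.62, 1.45 and 1.80 (SE 0.49, 0.40 and 0.30), on 34 reads against 5 in P199L-ERG cells, 34 against 12 in WT-ERG cells and 76 against 21 in BB cells.

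*Igtp*, an immunity-related GTPase that overlaps *Irgm2* on the same strand, rose by 0.38, 0.35 and 0.33 (SE 0.10 each). The BB call was lost without DMSO replicate 1 (0.23, edgeR adjusted p = 0.0596). *Irgm1*, a regulator of the other GTPases of its family, passed in no construct (-0.04, -0.00 and -0.11). *Ifi47*, also of this family, had 65, 61.3, 62.5 and 62.6 CPM in BRD3308-treated P199L-ERG cells, against 63.8, 63, 61.2 and 77 CPM in DMSO-treated ones. With WT-ERG, *Ifi47* was at 57.5, 62.1, 59.6 and 63.5 CPM with BRD3308 and 57.8, 65.2, 63.4 and 77.2 CPM with DMSO. BB cells had *Ifi47* at 50.2, 49.2, 49.3 and 54.5 CPM with BRD3308 and 43.1, 43.5, 48.3 and 47 CPM with DMSO. Its BB groups did not overlap, while those of the ERG constructs did. Its log2 fold changes were -0.07, -0.12 and 0.16 (SE 0.07 each), with edgeR adjusted p = 0.394, 0.175 and 0.073. Replicate 4 of the DMSO-treated P199L-ERG and WT-ERG cells had the highest *Ifi47* values of all 24 libraries.

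*Cxcl10*, a chemokine that attracts lymphocytes bearing CXCR3, rose furthest among the remaining members. *Cxcl10* had 13, 12.9, 11.9 and 11.1 CPM in BRD3308-treated P199L-ERG cells, against 4.44, 4.02, 3.97 and 3.35 CPM in DMSO-treated ones. With WT-ERG, *Cxcl10* was at 7.11, 6.66, 8.21 and 7.42 CPM with BRD3308 and 2.04, 1.76, 2.11 and 2.02 CPM with DMSO. BB cells had *Cxcl10* at 9.33, 9.61, 8.87 and 9.25 CPM with BRD3308 and 1.57, 2.86, 2.89 and 3.86 CPM with DMSO. The groups did not overlap in any construct, and log2 fold changes of *Cxcl10* were 1.63 (SE 0.12) in P199L-ERG cells, 1.89 (SE 0.15) in WT-ERG cells and 1.74 (SE 0.14) in BB cells, with edgeR adjusted p from 9.38e-12 to 3.8e-11. *Art3* overlaps it on the other strand.

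*Slfn2* was the member with the highest level per kb. *Slfn2* had 95, 102, 103 and 104 CPM in BRD3308-treated P199L-ERG cells, against 59.1, 59.5, 65.4 and 75.6 CPM in DMSO-treated ones. With WT-ERG, *Slfn2* was at 99.7, 98.8, 101 and 112 CPM with BRD3308 and 50.2, 53.6, 59.5 and 64 CPM with DMSO. BB cells had *Slfn2* at 104, 114, 109 and 121 CPM with BRD3308 and 63.4, 66.3, 70.6 and 66.4 CPM with DMSO. No groups overlapped, and log2 fold changes of *Slfn2* were 0.64 (SE 0.07) in P199L-ERG cells, 0.86 (SE 0.07) in WT-ERG cells and 0.75 (SE 0.07) in BB cells, with edgeR adjusted p from 6.8e-11 to 1.49e-08.

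The rest of the members moved by smaller steps. *Epsti1*, an interferon-response gene of macrophages, rose by 0.59, 0.69 and 0.62 in P199L-ERG, WT-ERG and BB cells (SE 0.08 each). *Trim30a*, a ubiquitin ligase of myeloid cells in the mouse, rose by 0.46, 0.33 and 0.49 (SE 0.06 each). *Sp100* rose by 0.36, 0.38 and 0.42 (SE 0.05 each). *Xaf1*, a factor that promotes apoptosis, rose by 0.91, 1.43 and 0.83 (SE 0.28, 0.27 and 0.27). This is a description, since *Xaf1* passed the filter only through BRD3308 groups. The *Xaf1* call was lost in P199L-ERG cells without BRD3308 replicate 4 (0.70, edgeR adjusted p = 0.0533) and in BB cells without DMSO replicate 2 (0.66, edgeR adjusted p = 0.0679). *Ifi35*, a regulator of innate signalling, was lower in P199L-ERG cells (-0.18, SE 0.07, edgeR adjusted p = 0.0459). The *Ifi35* call was lost without DMSO replicates 2, 3 or 4 or BRD3308 replicates 2 or 3 of these cells, or without BRD3308 replicate 2 of the WT-ERG cells (-0.13 to -0.19, edgeR adjusted p up to 0.179).

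*Lgals3bp*, a secreted protein that binds galectins, rose in BB cells alone among the 3 constructs. *Lgals3bp* had 47.1, 48.4, 48.2 and 50.7 CPM in BRD3308-treated P199L-ERG cells, against 51.1, 46.7, 46.6 and 43.5 CPM in DMSO-treated ones. With WT-ERG, *Lgals3bp* was at 57, 51.5, 51.7 and 52.8 CPM with BRD3308 and 54.7, 51.7, 47.8 and 52.9 CPM with DMSO. BB cells had *Lgals3bp* at 28.6, 28.2, 29.2 and 28.2 CPM with BRD3308 and 20.8, 19.9, 19.1 and 21.1 CPM with DMSO. Only the BB groups stayed apart. The log2 fold changes were 0.05, 0.04 and 0.50 in P199L-ERG, WT-ERG and BB cells (SE 0.05, 0.05 and 0.06).

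The promoter letters did not divide the tested members cleanly. Of 14 tested members with ISRE letters, 11 rose in all 3 constructs, and of 17 with a promoter but no ISRE letters, 9 did. The median of the members' mean log2 fold change was 0.64 with the letters and 0.31 without. These counts include members that passed the filter only through BRD3308 groups, with the letters and without, and are a description. The shares of all genes with and without the letters that rose in all 3 constructs were not counted, so the counts have no background. *Oasl2* and *Ifit2* rose without these letters in the window, while *Irgm1*, which holds them, passed in no construct.

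The other pathway list held 57 genes with the 21 ligands, and 33 of them were tested. Among these, 15 rose and 7 fell in P199L-ERG cells, 15 rose and 6 fell in WT-ERG cells, and 12 rose and 6 fell in BB cells. As shares these were 45.5% and 21.2%, 45.5% and 18.2%, and 36.4% and 18.2%, against the 24.4% and 24.1%, 24.7% and 23.2%, and 24% and 22% of all genes given above. The kinase gene *Jak2*, used by the type II receptor, fell by 0.20, 0.22 and 0.37 on the log2 scale in P199L-ERG, WT-ERG and BB cells (SE 0.04 each). *Irf9*, the DNA-binding part of the complex at the ISRE, rose by 0.54, 0.45 and 0.61 (SE 0.09 each). The receptor genes *Ifnar1* and *Ifnar2* were at 65.3 to 102 and 79.1 to 95.8 CPM over all 24 libraries, and the only call between BRD3308 and DMSO was for *Ifnar1* in WT-ERG cells (0.17, SE 0.07). In DMSO, 1 pathway gene was higher and 4 lower in P199L-ERG than in BB cells, and for WT-ERG against BB these counts were 2 and 11. The shares of the list were 3.03% and 12.1%, and 6.06% and 33.3%, against 15.3% and 12.9%, and 15.6% and 14.1% of all genes tested.

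Of the 6 genes of other interferon regulatory factors listed, 4 rose in each construct. *Irf8*, a factor of monocyte and dendritic cell fate, rose by 2.56, 2.32 and 2.38 (SE 0.08 each). *Irf5* rose by 0.88, 0.94 and 1.48 (SE 0.11 each), and *Irf7*, which amplifies interferon production, by 0.63, 0.88 and 0.70 (SE 0.17, 0.19 and 0.17). The endosomal receptor genes *Tlr9* and *Tlr7*, which sense DNA and RNA, rose by 3.28, 3.07 and 3.06 and by 0.92, 1.20 and 0.76. Of the genes that restrain the pathway, the phosphatases *Ptpn2*, *Ptpn6* and *Ptpn11* fell in all 3 constructs, by 0.18 to 0.28, and *Socs3* rose by 0.45, 0.35 and 0.19.

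Markers of mature myeloid cells moved with the same treatment. Of 10 monocyte and macrophage markers, 6 were tested and all 6 rose in each construct, and their summed level was 1297 to 1937 CPM with BRD3308 and 413 to 834 CPM with DMSO. The complement genes *C1qa*, *C1qb* and *C1qc* of macrophages had 0 reads. The 9 neutrophil markers summed to 4397 to 6451 CPM with BRD3308 and 1746 to 3127 CPM with DMSO, mostly *S100a8* and *S100a9*. Of these 9 genes, 5 rose and 0 fell in P199L-ERG cells, 6 rose and 1 (*Retnlg*) fell in WT-ERG cells, and 5 rose and 1 (*Ngp*) fell in BB cells. Markers of plasmacytoid dendritic cells, a main source of interferon, summed to 70.7 to 90.7 CPM with BRD3308 and 80.3 to 103 CPM with DMSO, with 1 of 8 (*Runx2*) tested and *Ly6d* and *Cd209d* at 0. *Runx2* made up nearly all of it (70.2 to 90.3 CPM with BRD3308 and 80 to 103 CPM with DMSO), so this sum does not show such cells. The 10 lymphocyte markers summed to 248 to 367 CPM with BRD3308 and 102 to 243 CPM with DMSO, with *Cd4* and *Ncr1* at 0 and 3 of 10 tested. Nearly all of that sum was *Nkg7* (228 to 347 CPM with BRD3308 and 97.8 to 236 CPM with DMSO). In bulk RNA, more cells of a type and more RNA per cell cannot be told apart, and the part of these shifts in the members' changes was not tested.

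In DMSO-treated cells some members differed between ERG and BB cells, in both directions and in shares near those of all genes. This comparison addresses the family without the inhibitor, and it can include differences between the derived lines. Of the 37 tested members, 6 were higher and 4 lower in P199L-ERG cells, where 15.3% and 12.9% of all genes tested were. In WT-ERG cells 5 were higher and 5 lower, where 15.6% and 14.1% of all genes were. The median log2 fold change of the members was 0.01 in P199L-ERG cells and -0.02 in WT-ERG cells, against 0.02 and 0.01 for all genes. These shares lie near the background, and both comparisons use the same BB libraries.

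Among the members *Lgals3bp* had the smallest p in both comparisons, with 1.22, SE 0.06, edgeR adjusted p = 7.21e-16 in P199L-ERG cells and 1.35, SE 0.06, edgeR adjusted p = 3.94e-17 in WT-ERG cells, whose DMSO values above lie wholly over the 19.1 to 21.1 CPM of BB cells. *Ifi47* was higher by 0.54 in P199L-ERG cells and 0.53 in WT-ERG cells (SE 0.07 each), and *Bst2* by 0.37 and 0.29 (SE 0.07 each). *Ifi35* was higher in P199L-ERG cells (0.32, SE 0.08, edgeR adjusted p = 0.00216). *Ifit2* was lower in both, with -0.61, SE 0.09, edgeR adjusted p = 7.66e-06 in P199L-ERG cells and -0.83, SE 0.09, edgeR adjusted p = 4.32e-08 in WT-ERG cells. *Gbp7* was lower too, with -0.75, SE 0.14, edgeR adjusted p = 0.000167 in P199L-ERG cells and -0.87, SE 0.14, edgeR adjusted p = 2.22e-05 in WT-ERG cells. For *Lgals3bp*, *Ifi47*, *Bst2*, *Ifit2* and *Gbp7* no library of the ERG groups overlapped the BB libraries. Among the 37 members, 4 lay wholly higher and 4 wholly lower than BB in P199L-ERG cells, and 5 and 4 in WT-ERG cells. Of all genes tested, 12.7% lay wholly higher and 11.8% wholly lower in P199L-ERG cells, and 16.2% and 14.3% in WT-ERG cells.

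The remaining calls, *Cxcl10* aside, were each lost when some library was left out. *Gbp2* was lower in P199L-ERG cells (-2.04, SE 0.54) on 5 reads against 21. It passed the filter only through BRD3308-treated BB cells, which favours a lower value in the ERG groups, and it no longer passed without BB replicate 2 (-1.72, edgeR adjusted p = 0.0517). *Oas3* was higher in WT-ERG cells (2.27, SE 0.72) on 22 reads against 4, and was lost without BB replicate 3 (1.89, edgeR adjusted p = 0.0593), BB replicate 4 (1.93, edgeR adjusted p = 0.0535) or WT-ERG replicate 1 (2.02, edgeR adjusted p = 0.0589). *Parp12* was higher in WT-ERG cells (0.95, SE 0.34), lost without BB replicates 2 or 4 or any WT-ERG replicate (0.64 to 1.0, edgeR adjusted p up to 0.136). *Dhx58* was lower in WT-ERG cells (-0.33, SE 0.10), lost without BB replicate 4 (-0.27, edgeR adjusted p = 0.0593) or WT-ERG replicate 2 (-0.28, edgeR adjusted p = 0.0549). *Slfn2* was lower in WT-ERG cells (-0.23, SE 0.07), lost without BB replicate 3 or WT-ERG replicates 1 or 2 (-0.18 to -0.21, edgeR adjusted p up to 0.0758). *Isg20* was higher (0.25, SE 0.09) and *Ifih1* lower (-0.14, SE 0.05) in P199L-ERG cells. They were lost in 13 and 8 of the 24 fits that left out a library, P199L-ERG replicate 4 among them (*Isg20* 0.20, edgeR adjusted p = 0.13, *Ifih1* -0.11, edgeR adjusted p = 0.148).

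**Figure D4:**
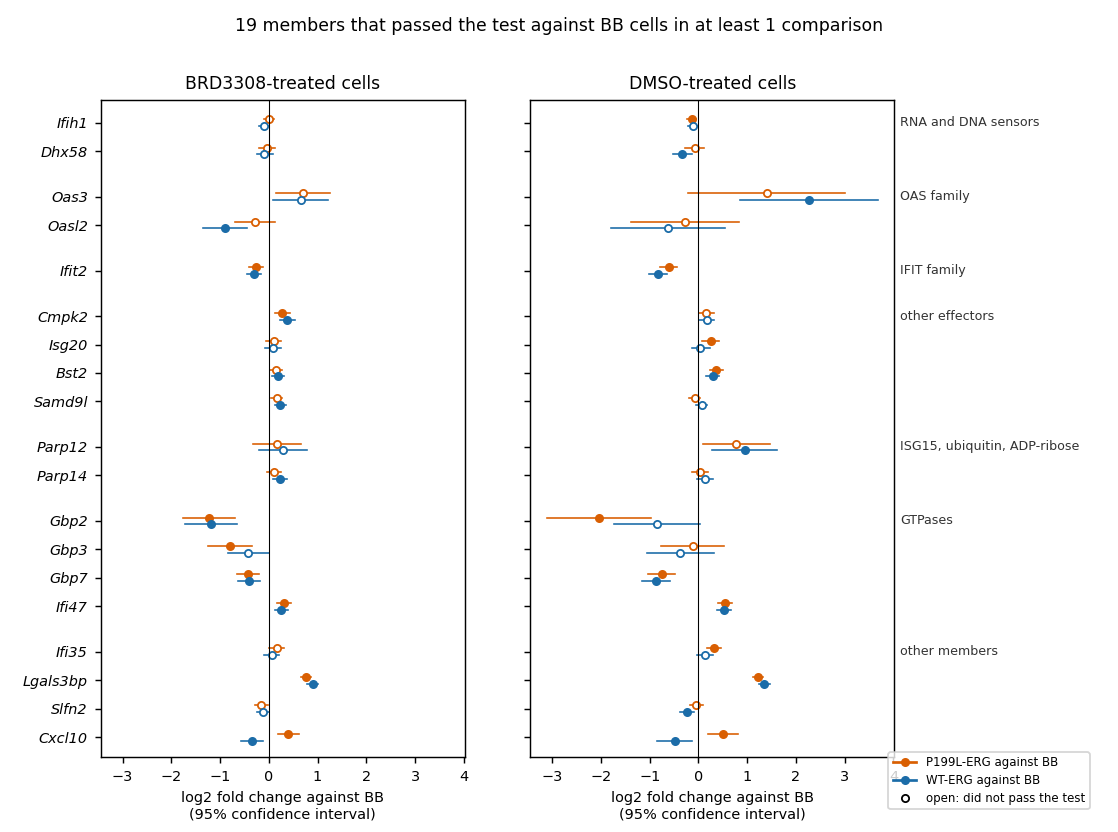
Log2 fold change against BB cells, with 95% confidence intervals, of the 19 members that passed in at least 1 comparison with BB, for P199L-ERG and WT-ERG cells in BRD3308 (left) and DMSO (right). The share of all genes that passed in at least 1 of these comparisons was not counted, so the 19 have no background. *Lgals3bp* (0.77 to 1.35) and *Ifi47* lie right of 0 in both panels, *Ifit2* and *Gbp7* lie left of it, and *Cxcl10* is on opposite sides for the 2 constructs.

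In BRD3308-treated cells the same kind of mixture remained. Against BB cells, 4 members were higher and 4 lower in P199L-ERG cells, where 8.12% and 8.81% of all genes tested were, and 6 higher and 5 lower in WT-ERG cells, where 10.4% and 10.7% were. *Lgals3bp* was higher by 0.77, SE 0.05 in P199L-ERG cells and by 0.90, SE 0.05 in WT-ERG cells. *Ifi47* followed with 0.31 and 0.26 (SE 0.07 each) and *Cmpk2* with 0.28 and 0.38 (SE 0.08 each). *Gbp2* was lower by 1.22 in P199L-ERG cells and 1.19 in WT-ERG cells on the log2 scale (SE 0.27 each), a description since it passed the filter only through the BB group it is set against. *Gbp7* was lower by 0.43 and 0.41 (SE 0.12 each) and *Ifit2* by 0.27 and 0.31 (SE 0.07 each). *Gbp3* was lower in P199L-ERG cells (-0.80, SE 0.23) and *Oasl2* in WT-ERG cells (-0.90, SE 0.23).

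WT-ERG cells with BRD3308 were also higher than BB cells for *Samd9l* (0.24, SE 0.06), *Parp14* (0.23, SE 0.07) and *Bst2* (0.19, SE 0.06). *Parp14* was lost without BB replicates 2, 3 or 4 or WT-ERG replicates 1 or 4, and *Bst2* without BB replicates 1 or 3 or WT-ERG replicates 1, 3 or 4, with edgeR adjusted p up to 0.136 and 0.163 and values down to 0.17 and 0.14. In P199L-ERG cells *Cmpk2* was lost without BB replicates 3 or 4 or P199L-ERG replicate 1 (0.22 to 0.26), *Gbp3* without BB replicate 4 or P199L-ERG replicate 2 (-0.66 and -0.62), and *Gbp7* without P199L-ERG replicate 3 (-0.37). The 10 monocyte markers had summed levels of 459 to 521 CPM in P199L-ERG, 413 to 437 CPM in WT-ERG and 790 to 834 CPM in BB cells with DMSO, most of it *F13a1* in BB cells (510 to 536 CPM). Of 6 tested, *Csf1r*, *Adgre1*, *F13a1* and *Mpeg1* were lower in both ERG constructs than in BB cells. *Ccr2* of the same list was higher (1.31 in P199L-ERG and 1.26 in WT-ERG cells, SE 0.05 each), and *Cx3cr1* did not pass. The part of these shifts in the members' differences was not tested.

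P199L-ERG and WT-ERG cells differed past the threshold for a single member, *Cxcl10*, in the comparison that addresses the point mutation and in the fit without a replicate block. In DMSO, 2.23% of all genes tested were higher and 2.45% lower with P199L-ERG, and in BRD3308 1.31% and 2.09% were. *Cxcl10* was higher with P199L-ERG in DMSO (1.0, SE 0.17, edgeR adjusted p = 0.000287) and in BRD3308 (0.74, SE 0.11, edgeR adjusted p = 4.72e-05). As the values above show, all 4 P199L-ERG libraries lay over all 4 WT-ERG libraries in each treatment (as did those of 3.57% of all genes in DMSO and 4.93% in BRD3308, with 5.6% the other way round in BRD3308), at 3.35 to 4.44 CPM against 1.76 to 2.11 CPM in DMSO and 11.1 to 13 CPM against 6.66 to 8.21 CPM in BRD3308. In fits of all libraries without a replicate block, no member was lower by edgeR, DESeq2 or limma-voom. In that direction 4 in DMSO and 2 in BRD3308 had an unadjusted edgeR p under 0.05.

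BB cells lay between the 2 ERG proteins for *Cxcl10*. Against BB in DMSO, *Cxcl10* was higher in P199L-ERG cells (0.51, SE 0.16, edgeR adjusted p = 0.0167) and lower in WT-ERG cells (-0.49, SE 0.18, edgeR adjusted p = 0.0447), with overlapping groups. The P199L-ERG call was lost without BB replicate 1 (0.32, edgeR adjusted p = 0.11) or P199L-ERG replicate 1 (0.45, edgeR adjusted p = 0.0502). The WT-ERG call was lost without BB replicates 2, 3 or 4, any WT-ERG replicate or P199L-ERG replicate 3 (-0.31 to -0.52, edgeR adjusted p up to 0.237). In BRD3308 the groups did not overlap, at 11.1 to 13 CPM in P199L-ERG cells, 6.66 to 8.21 CPM in WT-ERG cells and 8.87 to 9.61 CPM in BB cells. There *Cxcl10* differed from BB by 0.40, SE 0.11, edgeR adjusted p = 0.0074 in P199L-ERG cells and by -0.34, SE 0.11, edgeR adjusted p = 0.0345 in WT-ERG cells. The last of these was lost without BB replicates 1, 2 or 4 or WT-ERG replicates 1 or 2 (-0.29 to -0.35, edgeR adjusted p up to 0.118).

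**Figure D5:**
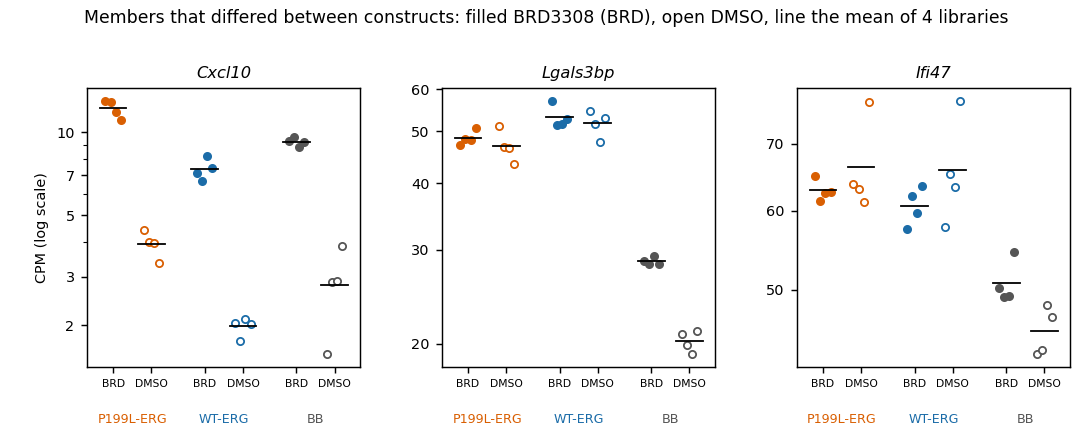
CPM (log scale) in each of the 24 libraries for *Cxcl10*, *Lgals3bp* and *Ifi47*, with BRD3308 filled and DMSO open and a line at the mean of 4 libraries. *Cxcl10* orders the constructs P199L-ERG, BB, WT-ERG in BRD3308 without overlap, and *Lgals3bp* in BB cells stays at or under 29.2 CPM, below the 43.5 CPM or more of the ERG groups.

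The size of the response to BRD3308 differed between constructs for 2 members. *Lgals3bp* responded less in P199L-ERG cells than in BB cells (-0.45, SE 0.08, edgeR adjusted p = 0.00147) and less in WT-ERG cells than in BB cells (-0.45, SE 0.08, edgeR adjusted p = 0.000754). *Ifit2* responded more in WT-ERG cells than in BB cells (0.53, SE 0.12, edgeR adjusted p = 0.0135), and for P199L-ERG against BB the difference was 0.34 (95% confidence interval 0.12 to 0.57, edgeR adjusted p = 0.184). The WT-ERG difference was lost without DMSO replicate 2 of the WT-ERG cells (0.47, edgeR adjusted p = 0.0525). Among all genes tested, 0.455% responded more and 0.594% less in P199L-ERG than in BB cells, and 0.825% and 0.903% in WT-ERG than in BB cells.

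No member differed in response between P199L-ERG and WT-ERG cells by edgeR, DESeq2 or limma-voom, where 0.0231% of all genes responded more and 0.0231% less. Only *Slfn2* had an unadjusted edgeR p under 0.05 there, with -0.22 (95% confidence interval -0.41 to -0.02). For *Cxcl10* the difference was -0.26 (95% confidence interval -0.66 to 0.14), and for *Zbp1* it was 0.10 (-0.40 to 0.60). These intervals do not show that the responses were equal.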

How the data were processed

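The authors deposited raw read counts per gene for 24 libraries of ER-Hoxb8 cells. The submitters' processing notes name cutadapt, STAR, HTSeq and DESeq2 and the GRCm38 build. Their annotation and strand setting: not given in the sources used here. All columns matched 1 library each. Symbols and exon lengths came from GENCODE M21 (53706 of 53801 genes).

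Genes were kept with edgeR's filterByExpr (minimum count 10) and scaled by TMM. The quasi-likelihood test of edgeR 4.0.16 (R 4.3.3) used 1 coefficient for each group, the 24 libraries together and 12 contrasts with two-sided p values adjusted by Benjamini-Hochberg over 12963 genes, with 0.05 as threshold. It was tested on simulated data. CPM are TMM-scaled, except those of *Erg* and the upper limits for 0 reads, which use the library totals alone. The 95% confidence intervals use the normal quantile and the SE.

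The members and gene lists were chosen with earlier results of these data known. Members named library by library have, in each role group, the smallest p for the WT-ERG response (up to 2) and for WT-ERG against BB in DMSO (up to 1). Pathway genes named have the smallest p of their list, and *Ifnar1* and *Ifnar2* were added after seeing the data. The values of 1 pathway gene are not reported here. Alternatives tried were DESeq2 1.42.0, limma-voom (limma 3.58.1), RLE factors or library size in place of TMM, no filter, a filter of more than 30 reads in each library, the groups compared alone, the replicate number as a block, each library left out, and both DMSO libraries of replicate 4 with ERG left out.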

Additional observations from a re-analysis of the deposited data

Results flagged for a closer look

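In each group of 4 libraries, a library was picked out if its gap to the nearest other exceeded Dixon's 95% critical share of the group's range, for the 17 members described library by library. Of 102 groups, 5 were picked out, and chance picks out about 1 in 20. All 5 were P199L-ERG groups. Replicate 4 of the DMSO-treated cells was highest for *Bst2* (28 CPM, others 26.6 to 26.7 CPM) and for *Ifi47* (77 CPM, others 61.2 to 63.8 CPM) and lowest for *Gbp3* (0.285 CPM, others 0.766 to 0.816 CPM). Among BRD3308-treated cells, replicate 3 was lowest for *Parp12* (0.915 CPM, others 1.62 to 1.71 CPM) and replicate 1 for *Slfn2* (95 CPM, others 102 to 104 CPM).

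Responses that differed between constructs were those of *Ifit2* in WT-ERG against BB cells (0.53, edgeR adjusted p = 0.0135) and of *Lgals3bp* in P199L-ERG against BB cells (-0.45, edgeR adjusted p = 0.00147) and in WT-ERG against BB cells (-0.45, edgeR adjusted p = 0.000754), as log2 differences.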

How the results depend on the processing

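No called member changed direction under any alternative. Of the 128 calls of members over the 12 comparisons, DESeq2 kept 124, RLE factors 127, library size alone 125, limma-voom 124, no filter 120, and leaving out both DMSO libraries of replicate 4 with ERG 120. The groups compared alone kept 116 of 123, more than 30 reads in every library 76 of 79, and 100 outlasted the omission of any library. With more than 30 reads in every library, 25 members stayed testable. Those higher with BRD3308 were then 14 in P199L-ERG, 15 in WT-ERG and 17 in BB cells, and 0 were lower in P199L-ERG and WT-ERG cells. In the same fit, 3 were higher in WT-ERG than BB cells in DMSO, 2 lower in P199L-ERG and 2 in WT-ERG than BB cells in BRD3308, and 0 higher in P199L-ERG than WT-ERG cells in either treatment, since *Cxcl10* was not testable. Members lower with BRD3308 in WT-ERG cells were 0 with RLE factors, library size alone, no filter and DESeq2, and 0 to 1 with a library left out. In P199L-ERG cells they were 1 with library size alone, no filter, DESeq2 or the groups compared alone, 0 without both replicate 4 DMSO libraries, and 0 to 2 with a library left out. In BB cells they were 2 without the filter or without both replicate 4 DMSO libraries, and 1 to 3 with a library left out. The groups compared alone gave 3 higher in WT-ERG than BB cells and 2 lower in P199L-ERG than BB cells in DMSO. No filter gave 2 higher in P199L-ERG than WT-ERG cells. With a library left out, WT-ERG against BB in DMSO gave 3 to 6 higher and 3 to 7 lower, P199L-ERG against BB 2 to 5 lower, P199L-ERG against WT-ERG 1 to 2 higher and 0 to 1 lower, and the response of WT-ERG minus BB 0 to 1 higher. The causes were not tested beyond the number of testable genes.

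The labels do not say that a replicate number marks a shared experiment. Deviations from the group means correlated over 0.1 in 29 of 60 pairs of libraries with the same number (median 0.0834) and in 2 of 180 other pairs (median -0.0237), a hint of a shared experiment. Since not every pair passed 0.1, the number was not used as a block in the tests above. With the replicate block all 128 calls were kept. It gave 2 members lower with BRD3308 in BB cells, 2 higher (*Cxcl10* and *Slfn2*) and 1 lower (*Trim25*) in P199L-ERG than WT-ERG cells in DMSO, and 2 with a smaller response in WT-ERG than BB cells. Members with few reads are limited by depth.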

Other observations

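Of 53 further interferon-induced genes listed for comparison, 40 were tested. With BRD3308, 24 rose and 5 fell in P199L-ERG cells, 23 rose and 3 fell in WT-ERG cells, and 26 rose and 3 fell in BB cells, with median log2 fold changes of 0.41, 0.36 and 0.38. Of the list, 60% rose and 12.5% fell in P199L-ERG cells, 57.5% and 7.5% in WT-ERG cells, and 65% and 7.5% in BB cells, against 24.4% and 24.1%, 24.7% and 23.2%, and 24% and 22% of all genes tested. The DNA sensor family of *Ifi203* and *Mndal*, which overlap each other, was among the genes that rose. *Ifi203* rose by 3.07, 2.67 and 2.89 (SE 0.25, 0.23 and 0.27) and *Mndal* by 1.36, 1.58 and 1.77 (SE 0.08, 0.09 and 0.09) in P199L-ERG, WT-ERG and BB cells. *Cd274*, which encodes the checkpoint ligand PD-L1, rose by 1.62, 1.53 and 1.49 (SE 0.15 each). *Ube2l6*, the conjugating enzyme for ISG15, rose by 2.14, 2.78 and 2.28 (SE 0.33, 0.39 and 0.31). *Mov10*, an antiviral RNA helicase, was lower with BRD3308 in each construct, by -0.39, -0.51 and -0.55 (SE 0.10, 0.10 and 0.11).

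*Gbp8*, a guanylate-binding protein gene, had 25 reads with BRD3308 and 1 with DMSO in P199L-ERG cells, 23 and 1 in WT-ERG cells, and 84 and 13 in BB cells. *Nlrc5*, an activator of MHC class I genes, responded less in WT-ERG than in BB cells (-0.38, SE 0.09, edgeR adjusted p = 0.0171), and *Ly6e*, which blocks virus entry, responded less in P199L-ERG than in BB cells (-0.25, SE 0.06, edgeR adjusted p = 0.037). These genes were singled out after their values were seen.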
